A study of Gallus gallus with 12 samples.

Results

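The right otocysts of 3 chicken embryos transfected with DNBCAT were compared with the untransfected left otocysts of the same embryos, which made 6 of the 12 libraries of the series. DNBCAT is a form of β-catenin truncated at both ends, which binds its partners without activating transcription and so acts as a dominant negative in the Wnt pathway. White Leghorn embryos were electroporated in ovo in the right otic cup on embryonic day 2 with a Tol2 plasmid that encodes mCherry, a self-cleaving peptide and the tagged truncated β-catenin. Both otocysts were collected 24 h later, on embryonic day 3, cleaned of mesenchyme and sequenced as separate libraries, so each replicate is an embryo. The remaining 6 libraries come from 3 embryos of the same strain and age whose right otic cup received a plasmid encoding mCherry alone, and they serve here as the background of the procedure. Electroporation reaches only some cells of an otocyst, and embryos with strong and widespread fluorescence were chosen for RNA extraction. Which side was transfected is taken from the labels, because construct reads are not used here. The embryos are called by the numbers of their labels, 50, 51 and 52 for DNBCAT and 60, 61 and 62 for mCherry.

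Secreted Wnt proteins bind Frizzled receptors and protect β-catenin from degradation by a complex that contains AXIN and GSK3B. Stabilised β-catenin enters the nucleus, joins TCF and LEF factors and switches on targets, among them feedback inhibitors of the pathway. In the otocyst, the vesicle that forms the inner ear, Wnt activity is highest dorsally and is known to restrain the ventral neurosensory fate and to favour dorsal, vestibular identities. This comparison asked which transcripts differ when Wnt activity is lowered inside the otocyst.

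Each library holds estimated counts for 28756 transcripts. The total per library was between 13157404 and 15269714 in the 6 libraries (median 14856597). A name could be given to 856 transcripts from the study's supplementary tables, and 846 of these were among the 19408 transcripts that passed the filter of 5 or more estimated counts in no fewer than 47% of libraries. Each gene is thus represented by the listed transcript or transcripts, without the reads of any further transcripts. Levels are given as CPM, estimated counts scaled to a common TMM-normalized library total, which is not corrected for transcript length, so levels are compared between libraries and not between genes. The right otocyst of embryo 51 stood apart, because its 5 leading unnamed transcripts, among them ENSGALT00000028027.6 and ENSGALT00000012060.6, took 8.80% of its counts against 0.00836% to 0.314% in the other 11 libraries. In RNA from whole otocysts, fewer cells of a type and less RNA per cell cannot be told apart.

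No transcript passed an adjusted p of 0.05 in either direction with the quasi-likelihood test of edgeR and Benjamini-Hochberg adjustment (0.00% of 19408). Values below are therefore described as higher or lower on the right, not as changes. At an unadjusted p under 0.05, 531 transcripts were lower on the right (2.74%) and 673 were higher (3.47%), together 6.20%. DESeq2's Wald test, which was tried as an alternative, called 166 lower (0.855%) and 290 higher (1.49%) after adjustment. In the mCherry embryos the same edgeR test gave 0 adjusted calls and 346 transcripts lower (1.75%) and 394 higher (1.99%) at an unadjusted p under 0.05, together 3.75%, and DESeq2 called 40 lower (0.202%) and 44 higher (0.223%) after adjustment.

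Among the 846 named transcripts tested, 140 were lower and 58 higher on the right at an unadjusted p under 0.05. These counts were 88 and 19 without embryo 50, and 92 and 45 without embryo 51. The names come from tables of genes that the study called in its Notch and Wnt datasets, and 96 of the named transcripts are on its list for this dataset, which was chosen on these samples and is no independent evidence. Without those 96, 73 of 750 transcripts were lower and 29 higher. DESeq2 called 74 named transcripts lower and 41 higher, and outside the study's list it called 12 in each direction. All 3 embryos had the lower value on the right for 262 named transcripts and the higher value for 137, against 16.5% and 16.8% of all transcripts tested. All 3 right values lay below all 3 left values for 99 named transcripts and above them for 36. Of all transcripts, 5.0% and 3.65% did so, and in the mCherry embryos 2.67% and 2.46%. Outside the study's list, 195 of 750 named transcripts were lower and 108 higher in all 3 embryos. Of these 750, 48 had all right values below all left values and 22 had them above.

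The 3 pairs did not contribute equally. Over the 9816 transcripts with a mean of at least 10 CPM, the log2 ratio of right to left had an SD of 0.469 in embryo 50, 0.664 in embryo 51 and 0.423 in embryo 52. Embryo 51 held 52.5% of the summed squared ratios, embryo 50 held 26.1% and embryo 52 held 21.4%. The ratio of embryo 51 was the farthest of the 3 from zero for 57.0% of these transcripts. The mCherry embryos were more alike, with SDs of 0.400, 0.434 and 0.438 and shares of 29.6%, 34.9% and 35.5%.

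The same imbalance was present among named transcripts. Of 684 with a mean of at least 10 CPM, 42 were lower and 9 higher by more than 2-fold in embryo 51. In embryo 50, 24 were lower and 3 higher by that much. In embryo 52, 19 were lower and 0 were higher. In every pair, lower values on the right thus outnumbered higher ones among the named transcripts with large ratios. The 684 include transcripts of the study's list, which was chosen on these samples, so this excess is no independent evidence. A count without them was not made. Over all 9816 transcripts lower values were also the more frequent, with counts of 134 lower and 82 higher in embryo 50, 288 and 233 in embryo 51, and 103 and 84 in embryo 52.

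The ratios of embryos 50 and 51 resembled each other more than they resembled those of embryo 52. Across transcripts with at least 10 CPM, Spearman's correlation was 0.446 between embryos 50 and 51, with the same sign in 68.1% of transcripts. It was 0.0997 between embryos 50 and 52 and 0.0800 between embryos 51 and 52, with the same sign in 55.0% and 53.1%. These values run over 9816 transcripts of the same libraries, which are not independent. Between the mCherry embryos the correlation was 0.00937, 0.0187 and 0.114.

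The ratios of embryos 50 and 51 depended on transcript length more strongly than those of the other embryos. Spearman's correlation between length and the ratio was -0.360 in embryo 50, -0.397 in embryo 51 and 0.102 in embryo 52, against -0.0743, -0.192 and -0.156 in mCherry embryos 60, 61 and 62. In the shortest of 5 equal groups of transcripts, from 114 to 1491 bases, the median log2 ratio was 0.15 in embryo 50 and 0.39 in embryo 51. In the longest group, from 3614 to 25258 bases, it was -0.15 and -0.17. The part of this dependence in the results was examined by an added alternative, chosen after seeing the data, in which the length trend of each embryo was removed within the paired model. That fit also gave 0 adjusted calls, with 674 transcripts lower and 681 higher at an unadjusted p under 0.05. Its smallest adjusted p was 0.174 (edgeR), and 187 of the 198 named transcripts with an unadjusted p under 0.05 kept it. The correlation of 0.446 between embryos 50 and 51 was not computed with the length trend removed. The part of the shared length trend in that correlation was therefore not tested.

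**Figure D1:**
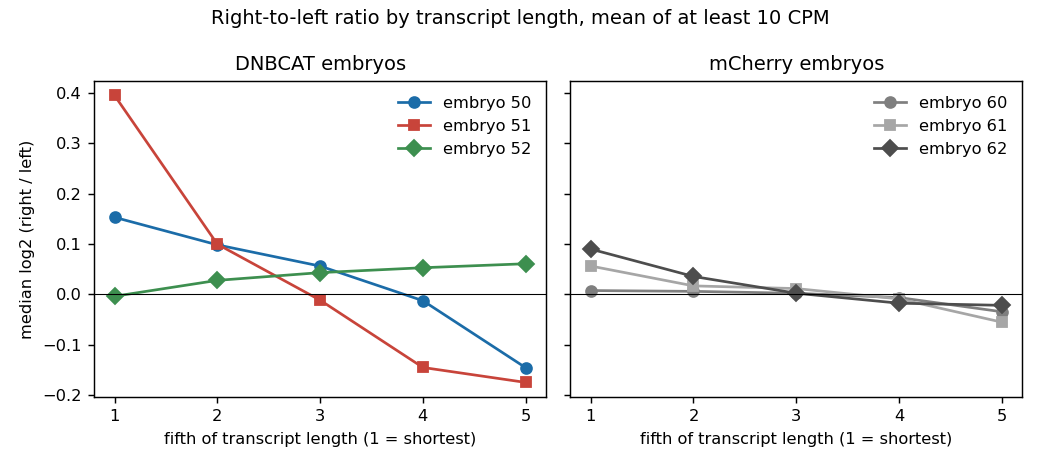
Median log2 ratio of right to left (vertical axis) in 5 groups of transcripts from the shortest to the longest (horizontal axis), one line per embryo, DNBCAT embryos on the left and mCherry embryos on the right. The lines of embryos 50 and 51 descend from 0.15 and 0.39 to -0.15 and -0.17, while the line of embryo 52 lies between -0.0036 and 0.061.

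In the descriptions that follow, 3 values in a row are those of embryos 50, 51 and 52. Log2 fold changes come from the paired edgeR fit and are negative when the right otocyst was lower, and each SE is that of the 3 log2 ratios of the embryos (n = 3). Every named transcript with an unadjusted p under 0.05 had an adjusted p of 0.718, except LDHA with 0.460 (edgeR, Benjamini-Hochberg). For each list the count of transcripts at an unadjusted p under 0.05 stands beside 2.74% lower and 3.47% higher among all transcripts. The list's median stands beside -0.02, or -0.10 over all named transcripts. Counts in all 3 embryos stand beside 16.5% lower and 16.8% higher of all transcripts with DNBCAT, and 13.1% and 13.5% with mCherry. The lists hold only named transcripts. Of 846 of these, 140 were lower and 58 higher, and of the 750 outside the study's list 73 and 29. The lists were written with earlier results of these data known, so their counts are no independent evidence. Over all transcripts the share with such a p was 6.20%, and 3.10%, 4.09% and 6.84% without embryo 50, 51 and 52.

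The 9 Wnt ligands tested were lower on the right in the fit, with a median log2 fold change of -0.68, and 3 of them had an unadjusted p under 0.05. The median over the list was -0.79 in embryo 50, -0.72 in embryo 51 and -0.88 in embryo 52, so the medians of the 3 pairs were alike. Single ligands were less so, since 5 of the 9 were lower in all 3 DNBCAT embryos. With mCherry, 3 of the 9 were lower in all 3 embryos. In the mCherry embryos the median log2 fold change was -0.15. One ligand, WNT2B, is on the study's list.

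WNT2B, a ligand of the β-catenin branch, had the most uniform values of the family. WNT2B (ENSGALT00000059836.3) was at 42.1, 44.3 and 45.2 CPM on the left and at 19.4, 19.0 and 17.8 CPM on the right. All right values lay below all left values, and the log2 fold change of -1.23 had an SE of 0.07. Its ratios in the mCherry embryos were -0.26, -0.07 and -0.36, and the difference between the constructs was -1.0 (adjusted p = 0.670, edgeR).

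WNT5A and WNT11 act mainly through branches of the pathway that do not need β-catenin. WNT5A (ENSGALT00000070747.2) was at 42.9, 46.9 and 46.4 CPM on the left and 33.7, 28.4 and 37.3 CPM on the right, a log2 fold change of -0.46 (SE 0.13). WNT11 (ENSGALT00000001231.2) was scarcer, at 5.16, 4.44 and 4.33 CPM on the left and 2.35, 2.87 and 1.67 CPM on the right, with -1.04 (SE 0.21). The sides did not overlap for either ligand, but WNT11 was also lower on the right in all 3 mCherry embryos (-0.52, -0.89 and -0.57).

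The other ligands were scarce and their pairs disagreed more. WNT4, with ratios of -0.30, -1.40 and -1.11, and WNT6, with -2.05, -2.93 and -0.96, were lower in every embryo. WNT6 was at most 3.4 CPM in any library and at 0 in the right otocyst of embryo 51. WNT3A, a ligand that signals through β-catenin, was lower in embryos 50 and 52 (-1.41 and -0.68) and level in embryo 51 (0.09). WNT7B and WNT9A were higher on the right in embryo 50 (0.45 and 0.54) and lower in the others, and WNT5B was lower only in embryo 50 (-0.79, 0.14 and 0.18). The log2 fold change of WNT9A (-0.06) turned positive without embryo 51 or 52, and that of WNT5B (-0.16) without embryo 50.

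Wnt receptors differed less. Of 10 tested, 2 had an unadjusted p under 0.05, both lower, and the median log2 fold change was -0.18 against -0.10 in the mCherry embryos. The count was 1 without embryo 50 or 52, and the median was -0.089 without embryo 51 and -0.31 without embryo 52. Embryo 51 contributed most, with a median of -0.49 against -0.10 and -0.14 in embryos 50 and 52, and it held the largest ratio of the 3 for 7 of the 10. In all 3 pairs 4 of the 10 were lower with DNBCAT, and 4 were lower with mCherry.

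The transcripts with the smallest p were LGR5 and LGR4, receptors for R-spondins, which raise the amount of Frizzled at the cell surface. LGR5 (ENSGALT00000016526.6), itself a target of the pathway in many tissues, was at 38.7, 39.3 and 53.4 CPM on the left and 29.9, 16.1 and 37.9 CPM on the right. Its sides did not overlap, with a log2 fold change of -0.71 (SE 0.29), and most of the difference lay in embryo 51, whose ratio was -1.28 against -0.37 and -0.49. LGR4 had ratios of -0.34, -0.84 and -0.20. The Frizzled receptor FZD3 had ratios of -0.11, -0.50 and -0.18, and its sides overlapped.

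β-catenin and its partners gave no transcript with an unadjusted p under 0.05 among 8, and their median log2 fold change was -0.05, or 0.016 without embryo 51. The largest ratio of the 3 lay in embryo 51 for 6 of them. The 2 transcripts of TBL1XR1, a cofactor of β-catenin at its targets, pointed in opposite directions in all 3 embryos, with ratios of 0.27, 0.30 and 0.07 for ENSGALT00000093552.1 and -0.11, -0.23 and -0.20 for ENSGALT00000093936.1. TCF7L1, which mostly represses targets when β-catenin is absent, had ratios of -0.36, -0.68 and 0.05. The transcript of CTNNB1, which encodes β-catenin itself, had ratios of 0.02, -0.37 and -0.01, so only embryo 51 departed from equality.

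Feedback inhibitors and antagonists of the pathway had a median log2 fold change of -0.18, with medians of -0.35, -0.31 and -0.32 in the 3 embryos and -0.05 for the log2 fold changes of the mCherry embryos. Of 11 tested, 3 had an unadjusted p under 0.05, all lower on the right, and 2 of the 11 are on the study's list. Without embryo 50 the count was 1, and without embryo 52 it was 4 lower and 1 higher, with a median of -0.37. In all 3 pairs 4 of the 11 were lower with DNBCAT, and 4 were lower with mCherry.

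AXIN2, a scaffold of the complex that degrades β-catenin and a widely used readout of the pathway, was lower in every pair. AXIN2 (ENSGALT00000078960.2) was at 34.2, 27.0 and 42.7 CPM on the left and 18.4, 15.3 and 26.9 CPM on the right. The ratios of -0.89, -0.81 and -0.66 were close to each other and the sides did not overlap, with a log2 fold change of -0.79 (SE 0.07). The paralogue AXIN1, which is not a target of the pathway, had ratios of -0.35, -0.46 and 0.41 and no common direction.

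APCDD1, a membrane inhibitor of Wnt signalling, differed strongly in 2 of the 3 pairs. APCDD1 (ENSGALT00000102628.1) was at 243, 200 and 246 CPM on the left and 122, 87.4 and 219 CPM on the right, so its ratio was -1.0 and -1.19 in embryos 50 and 51 but -0.17 in embryo 52. The log2 fold change was -0.78 (SE 0.31), and the right value of embryo 52 exceeded the left value of embryo 51. SFRP1, a secreted protein that binds Wnt ligands, was lower in all 3 pairs (-0.71, -0.50 and -0.32).

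The remaining antagonists had no common direction or small ratios. SFRP2, a relative of SFRP1, had ratios of 0.09, -0.23 and -0.40, and NOTUM, an enzyme that inactivates Wnt proteins by removing their lipid, had 0.35, -0.31 and -0.57. APCDD1L was higher on the right in embryos 50 and 51 (0.67 and 0.59) and lower in embryo 52 (-0.36). DACT2, DKK1 and DKK3 had ratios of opposite sign in different embryos, from -0.34 to 0.41 for DACT2, from -1.89 to 0.10 for DKK1 and from -0.05 to 0.26 for DKK3. SOSTDC1 was lower in all 3 (-0.67, -0.03 and -0.43), with overlapping sides.

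**Figure D2:**
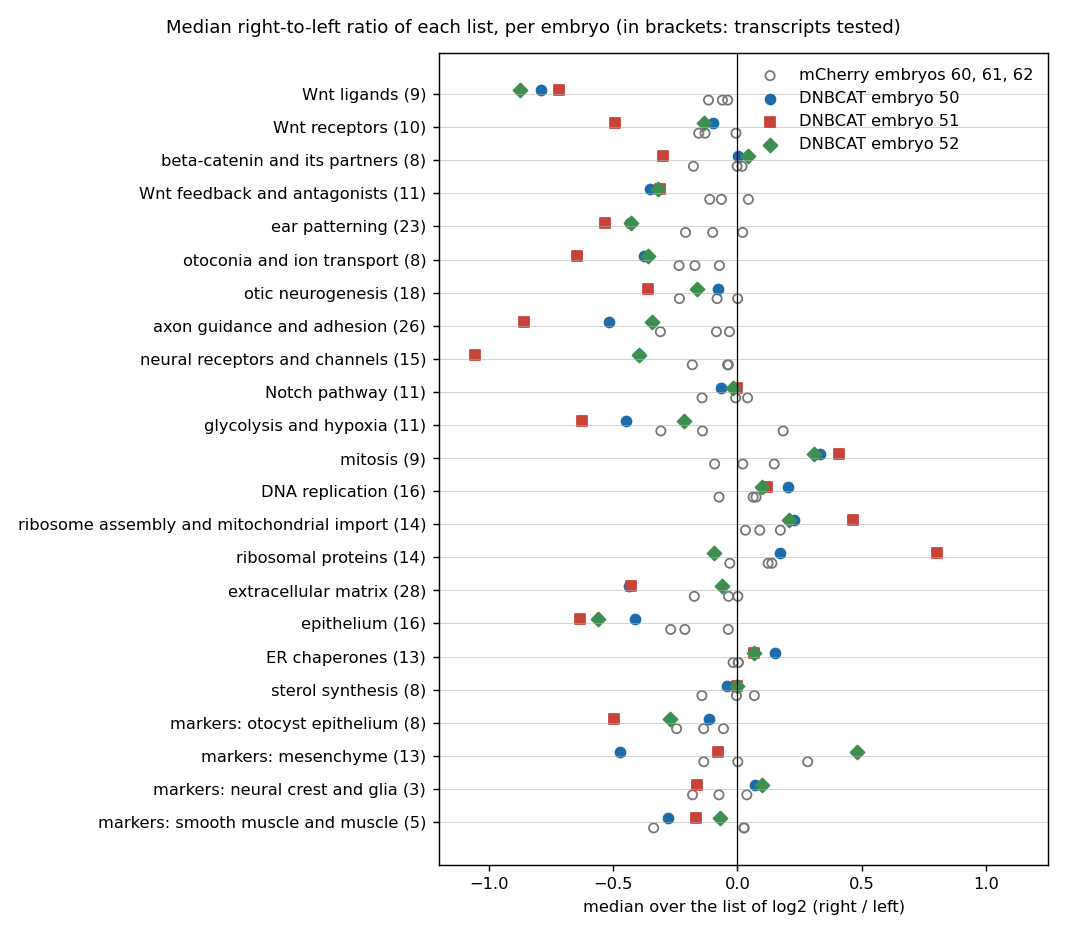
Median log2 ratio of right to left over each gene list (horizontal axis), with 1 filled marker for each DNBCAT embryo and open circles for the mCherry embryos, and the number of transcripts tested in brackets. The markers of the Wnt ligands lie at -0.79, -0.72 and -0.88 and those of mitosis at 0.33, 0.41 and 0.31, whereas those of ribosomal proteins (0.17, 0.80 and -0.09) and mesenchyme (-0.47, -0.08 and 0.48) lie apart.

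Genes that pattern the ear had a median log2 fold change of -0.47, and the medians of the 3 embryos were -0.43, -0.53 and -0.43. Of 23 tested, 9 had an unadjusted p under 0.05, all lower on the right, and 14 were lower in all 3 embryos. The mCherry median was -0.10 and 4 were lower in all 3 mCherry embryos. The study's list holds 7 of the 23.

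ALDH1A3, an enzyme that makes retinoic acid, had the largest log2 fold change of the list among those with an unadjusted p under 0.05. ALDH1A3 (ENSGALT00000078438.3) was at 167, 105 and 97.8 CPM on the left and 67.7, 19.3 and 25.5 CPM on the right. The sides did not overlap, and the log2 fold change was -1.88 (SE 0.33), largest in embryo 51 (-2.43) and smallest in embryo 50 (-1.30).

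The homeobox genes MSX2 and MSX1 were lower on the right in all 3 pairs. MSX2 (ENSGALT00000065242.2) was at 57.2, 62.8 and 39.8 CPM on the left and 34.7, 37.5 and 25.7 CPM on the right, a log2 fold change of -0.70 (SE 0.04). MSX1 (ENSGALT00000024209.4) was at 185, 169 and 135 CPM on the left and 120, 85.8 and 85.1 CPM on the right, with -0.76 (SE 0.11). Neither overlapped between the sides. BAMBI, a decoy receptor that dampens BMP signals, had ratios of -0.45, -0.80 and -0.72.

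Further genes of the list had like ratios in the 3 pairs. DACH1, a transcriptional cofactor of early ear development, had -0.38, -0.59 and -0.61, and LBH, a transcriptional regulator and Wnt target in other tissues, had -0.45, -0.54 and -0.62. DISP1, which releases Hedgehog ligands from the cells that make them, had -0.98, -1.05 and -0.61. BMPER, a secreted modulator of BMPs, was uneven, with -0.29, -2.16 and -1.23. Its left values of 50.3, 48.4 and 67.9 CPM lay above its right values of 41.0, 10.7 and 28.8 CPM.

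Other patterning genes did not share that direction. SOHO-1, a homeobox gene of the otocyst, was higher on the right in embryo 50 (0.61) and lower in embryos 51 and 52 (-0.57 and -0.20). FGF3, which encodes a growth factor made by the otic epithelium and hindbrain, was higher on the right in all 3 embryos (0.56, 0.39 and 0.61), at 4.46 to 4.67 CPM on the left and 6.15 to 6.89 CPM on the right. The fit gave 0.53 (SE 0.07), with an unadjusted p of 0.0798 and an adjusted p of 0.718 (edgeR). LMX1A, DLX5 and FGF10 had ratios between -0.49 and 0.22. FGF3 was the only 1 of the 23 patterning genes higher on the right in all 3 embryos.

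Genes for otoconia, the mineral grains of the balance organs, and for ion transport were mostly lower on the right. Of 8 tested, 5 had an unadjusted p under 0.05 and the median log2 fold change was -0.46, against -0.12 in the mCherry embryos. Without embryo 51 the count was 2 and without embryo 52 it was 3. In all 3 pairs 6 of the 8 were lower with DNBCAT, and 4 were lower with mCherry. Of the 8, 3 are on the study's list.

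NOXO1, the organizer of the NADPH oxidase that otoconia need, had the largest log2 fold change of the 8. NOXO1 (ENSGALT00000008938.6) was at 245, 212 and 147 CPM on the left and 73.6, 36 and 42.4 CPM on the right, without overlap. The log2 fold change was -2.02 (SE 0.26), against mCherry ratios of -0.08, -0.09 and -0.38, and the difference between the constructs was -1.84 (adjusted p = 0.670, edgeR).

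The ion transporters had smaller ratios. SLC12A2, the sodium, potassium and chloride cotransporter that feeds endolymph secretion, had ratios of -0.46, -0.79 and -0.45. The anion transporter SLC26A9 had -1.06, -1.0 and -0.37. OTOP1, a proton channel required for otoconia, had -0.29, -0.71 and -0.70, and GJB6, a gap junction protein, had -0.14, -0.58 and -0.35. The mCherry ratios of GJB6 were also negative in all 3 embryos (-0.18, -0.51 and -0.44). ATP1B1, a subunit of the sodium pump, was level in all 3 DNBCAT pairs (-0.03, -0.06 and -0.02).

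**Figure D3:**
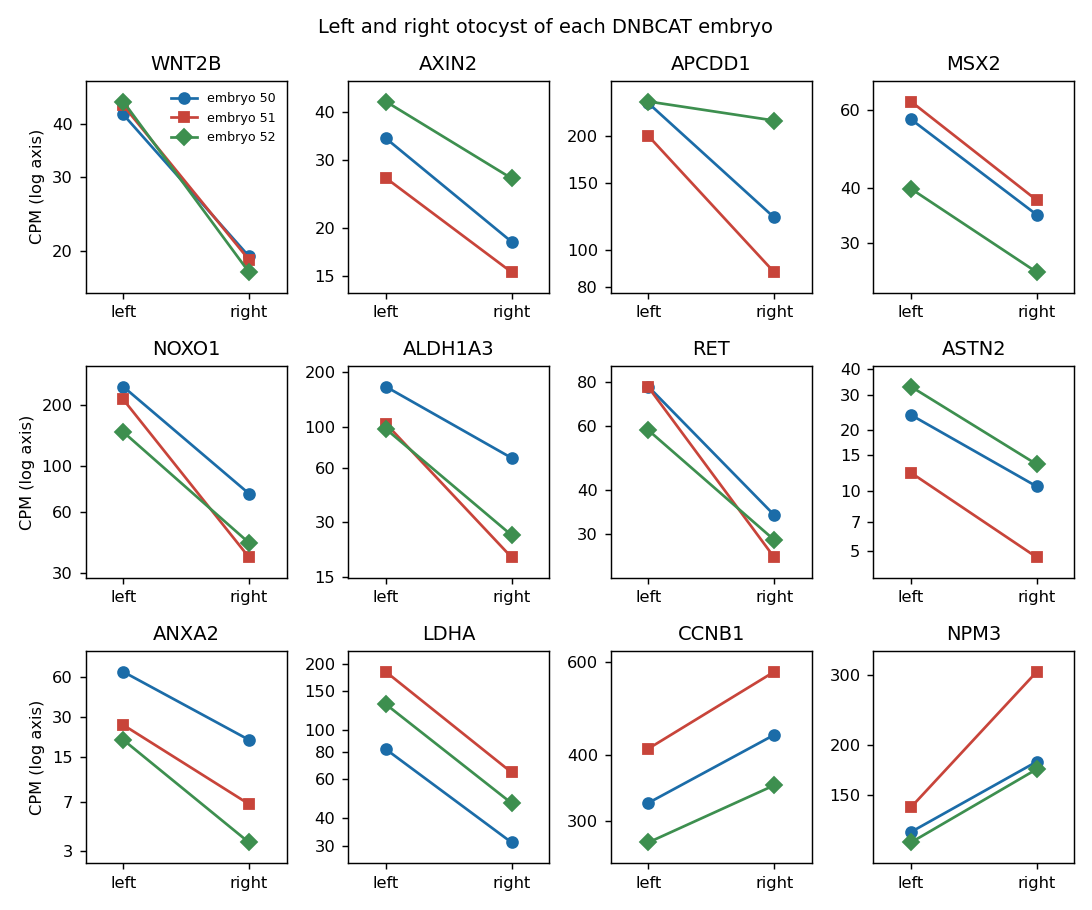
CPM (vertical log axis, its range set for each panel) in the left and right otocyst of each DNBCAT embryo for 12 transcripts, with 1 line per embryo. The lines descend in all 3 embryos for 10 transcripts, by the least for APCDD1 in embryo 52 (246 to 219 CPM), and ascend for CCNB1 and NPM3.

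Otic neurogenesis, the formation of the neuroblasts of the auditory and vestibular ganglion, was represented by 18 transcripts tested of 19. A pair of them had an unadjusted p under 0.05, both lower, and the median log2 fold change was -0.20, against -0.08 in the mCherry embryos. The count was 1 without embryo 50 or 51, and 4 lower and 1 higher without embryo 52. LHX5 did not pass the filter, with a single library of each side above 0. In all 3 pairs 4 of the 18 were lower with DNBCAT, and 5 were lower with mCherry.

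NEUROD1, a transcription factor needed for ganglion neurons, was lower on the right in all 3 pairs. NEUROD1 (ENSGALT00000014484.6) was at 84.5, 78.6 and 72.4 CPM on the left and 57.3, 53.0 and 58.5 CPM on the right, without overlap, with a log2 fold change of -0.48 (SE 0.09). In the mCherry embryos its ratios were -0.33, 0.04 and -0.46. TLX1, a homeobox gene of sensory neurons, was at 2.20, 1.13 and 1.57 CPM on the left and 0.457, 0.082 and 0.644 CPM on the right. The sides did not overlap at these low levels, and the right otocyst of embryo 51 had the lowest value.

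Other neuroblast genes gave no common picture. NHLH1 had ratios of -1.16, -0.48 and 0.56, EBF2 had -0.33, -0.32 and 0.41, and PRDM12 had 0.17, -1.01 and -0.28. The 4 transcripts of STMN1, a microtubule regulator of young neurons, had log2 fold changes between -0.24 and -0.11, and the STMN1 transcript with the smallest p (ENSGALT00000002237.5) had ratios of -0.09, -0.16 and -0.19.

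Genes of axon guidance and cell adhesion formed the list with the most transcripts at an unadjusted p under 0.05, 17 lower and 1 higher of 26. Their median log2 fold change was -0.63, with medians of -0.52, -0.86 and -0.34 in the 3 embryos and -0.11 for the mCherry fit. The medians of mCherry embryos 60, 61 and 62 were -0.03, -0.08 and -0.31, so embryo 62 was close to embryo 52. All 3 DNBCAT embryos were lower for 19 of the 26, and the 3 right values lay below the 3 left values for 12. All 3 mCherry embryos were lower for 8 of the 26. Without embryo 50 the counts were 10 lower and 1 higher. The study's list holds 14 of the 26, so this count is not independent of it.

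RET, the receptor of the GDNF family of growth factors, and ASTN2, an adhesion protein of migrating neurons, had the smallest p. RET (ENSGALT00000084496.2) was at 77.5, 77.2 and 58.6 CPM on the left and 34.0, 25.9 and 29.0 CPM on the right, with a log2 fold change of -1.26 (SE 0.17). ASTN2 (ENSGALT00000011395.5) was at 23.8, 12.3 and 32.9 CPM on the left and 10.5, 4.67 and 13.5 CPM on the right, with -1.28 (SE 0.06). The sides overlapped for ASTN2 because its level differed between embryos, while its ratios of -1.17, -1.37 and -1.27 were nearly the same. For RET, all right values lay below all left values.

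CRMP1, which carries semaphorin signals to the cytoskeleton, had ratios of -0.93, -1.05 and -0.54. The semaphorins SEMA3A (-0.49, -0.74 and -1.03), SEMA3D (-0.84, -0.87 and -0.37) and SEMA6D (-0.42, -0.71 and -0.46) were lower in all 3 pairs, as was SLIT1, a repellent for axons, with -0.95, -1.16 and -0.42. Adhesion molecules had like values, with -0.97, -0.92 and -0.34 for ALCAM, -0.84, -1.24 and -0.70 for NCAM2 and -1.17, -1.25 and -1.53 for CADM2. Most of these ratios were smallest in embryo 52, with SEMA3A, SEMA6D and CADM2 as exceptions.

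RTN4, an inhibitor of axon growth, was the 1 transcript of the list that was higher on the right with an unadjusted p under 0.05. RTN4 (ENSGALT00000102479.1) was at 28.5, 89.0 and 25.9 CPM on the left and 70.3, 170 and 35.6 CPM on the right. Its ratios of 1.3, 0.93 and 0.46 stand beside mCherry ratios of -0.82, -2.71 and 0.79. The ratios without DNBCAT thus differ more between embryos and are of both signs. DPYSL2, a relative of CRMP1, was level (0.10, -0.16 and -0.02).

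Neural receptors and channels had a median log2 fold change of -0.78, with 4 of 15 lower at an unadjusted p under 0.05, and 2 lower without embryo 51 or 52. Embryo 51 contributed most, with a median of -1.06 against -0.40 in each of the other embryos. Among transcripts with at least 10 counts in every library the median was -0.31, so the list's value rests largely on scarce transcripts. Of the 15, 4 are on the study's list.

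HTR1E, a serotonin receptor, was the most uniform of them. HTR1E (ENSGALT00000025516.5) was at 30.8, 20.6 and 30.7 CPM on the left and 9.92, 5.08 and 8.43 CPM on the right, with a log2 fold change of -1.83 (SE 0.11). The glutamate transporter SLC1A7 (ENSGALT00000079836.2) was at 13.6, 18.8 and 10.6 CPM on the left and 6.13, 4.84 and 4.06 CPM on the right, with -1.49 (SE 0.24). The sides of both were apart. KCND2, a potassium channel, had ratios of -0.39, -1.07 and -0.86, while CACNG3 and KCNG1 were higher on the right in embryo 50 and lower in embryos 51 and 52.

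Notch pathway genes, which control the choice between neuroblast and sensory fates, were close to level. The median log2 fold change was -0.03 and 1 of 11 had an unadjusted p under 0.05. Leaving out embryo 50 or 51 gave 0, and leaving out embryo 52 gave 2. The transcript in the fit of all 3 pairs was JAG2, a Notch ligand, with ratios of -0.56, -0.45 and -0.12. In its separate Notch dataset, the study reported JAG2 and NOTCH1 as lower after electroporation of a control plasmid. In the embryos used here, 3 of the 11 were lower in all 3 DNBCAT pairs and 0 in all 3 mCherry pairs. LFNG, which modifies Notch, had -0.25, -0.52 and -0.07, and the Notch target HEY1 had 0.57, 0.14 and 0.13. NOTCH1 had -0.08, -0.01 and -0.02, although its level on either side differed between embryos, from 118 to 289 CPM.

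Glycolysis and hypoxia genes had a median log2 fold change of -0.61, and 5 of 11 were lower with an unadjusted p under 0.05. The medians of the embryos were -0.45, -0.62 and -0.21. The mCherry median was -0.10, and 2 of the 11 were lower in all 3 mCherry embryos against 8 in the DNBCAT embryos. The medians of mCherry embryos 60, 61 and 62 were -0.14, 0.18 and -0.31, so that of embryo 62 was lower than that of DNBCAT embryo 52. The study's list holds 3 of the 11.

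LDHA, lactate dehydrogenase, had the smallest p of all transcripts. LDHA (ENSGALT00000039415.4) was at 82.0, 184 and 131 CPM on the left and 31.0, 64.3 and 46.7 CPM on the right, without overlap. Its level differed between embryos on both sides while the ratios were -1.40, -1.51 and -1.49, and the fit gave -1.47 (SE 0.03) with an adjusted p of 0.460 (edgeR). The mCherry ratios were -0.54, 0.37 and -2.09, so embryo 62 had a lower ratio than any DNBCAT embryo, and the difference between the constructs had an adjusted p of 0.935 (edgeR).

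Transcripts that act beside LDHA had the same order of sides. SLC16A3 (ENSGALT00000004306.4), which exports lactate, was at 39.1, 66.4 and 66.3 CPM on the left and 22.2, 28.8 and 35.9 CPM on the right, with a log2 fold change of -0.97 (SE 0.12). Its mCherry ratios, -0.54, 0.30 and -1.13, had the same signs as those of LDHA. CA12, a carbonic anhydrase, had ratios of -0.45, -1.44 and -1.04, and P4HA1, a collagen prolyl hydroxylase that responds to hypoxia, had -0.47, -0.95 and -0.41. PGAM1, a glycolytic enzyme, had the same order of sides with smaller ratios of -0.10, -0.19 and -0.21. By contrast CA9, a classical hypoxia target, had 0.06, 0.04 and -0.21.

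Transcripts for mitosis were higher on the right in all 3 pairs, with 1 exception. All 9 transcripts had a positive log2 fold change, 7 had an unadjusted p under 0.05, and the medians of the embryos were 0.33, 0.41 and 0.31. The median of the fit was 0.35 against 0.03 in the mCherry embryos. With embryo 50 left out, 1 of the 9 had an unadjusted p under 0.05, while the median was 0.37. The share over all transcripts also fell in that fit, from 6.20% to 3.10%. Of the 9, 6 are on the study's list.

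CDK1 and CCNB1 form the kinase and cyclin that drive entry into mitosis. CDK1 (ENSGALT00000004876.5) was at 281, 366 and 241 CPM on the left and 370, 556 and 324 CPM on the right, with a log2 fold change of 0.47 (SE 0.06). CCNB1 (ENSGALT00000006616.7) was at 325, 411 and 273 CPM on the left and 437, 575 and 351 CPM on the right, with 0.42 (SE 0.04). The sides overlapped because the embryos differed in level, with embryo 51 highest on both sides, but every right value exceeded its own left value. CENPH, a kinetochore protein, had ratios of 0.43, 0.42 and 0.31, and AURKA, a spindle kinase, had 0.24, 0.39 and 0.40. The exception was NCAPG, a condensin subunit, with 0.07, 0.05 and -0.07.

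DNA replication genes had smaller ratios. The median log2 fold change was 0.14, and 3 of 16 were higher with an unadjusted p under 0.05. Leaving out embryo 50 gave 0 and leaving out embryo 51 gave 1. RPA3, which coats single-stranded DNA, had ratios of 0.36, 0.57 and 0.18. ORC1, part of the origin recognition complex, had 0.29, 0.16 and 0.26, and RRM2, which makes deoxyribonucleotides, had 0.25, 0.41 and 0.11. The helicase subunits MCM2, MCM3, MCM4 and MCM6 had log2 fold changes between -0.12 and 0.05.

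CDKN1A, which encodes an inhibitor of cyclin-dependent kinases, was also higher on the right. CDKN1A (ENSGALT00000044994.3) had estimated counts of 8, 8 and 7 on the left and 60, 37 and 48 on the right, or 0.503, 0.603 and 0.440 CPM against 3.91, 3.03 and 3.09 CPM. The sides were far apart and the fit gave 2.68 (SE 0.17). The mCherry ratios were also positive, at 0.67, 0.65 and 0.43.

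Ribosome assembly and mitochondrial import had a median log2 fold change of 0.35, with 7 higher and 1 lower of 14 at an unadjusted p under 0.05 and medians of 0.23, 0.46 and 0.21 in the embryos. Embryo 51 held the largest ratio for 12 of the 14. The count higher was 2 without embryo 50. The study's list holds 6 of the 14, and the mCherry median was 0.10. In all 3 pairs 9 of the 14 were higher with DNBCAT, and 7 were higher with mCherry. Lower in all 3 pairs were 2 with DNBCAT and 1 with mCherry.

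NPM3, a nucleolar chaperone, had the largest log2 fold change of those transcripts. NPM3 (ENSGALT00000063023.2) was at 121, 140 and 114 CPM on the left and 182, 306 and 174 CPM on the right, without overlap, with 0.78 (SE 0.18). Its mCherry ratios were positive as well, at 0.04, 0.43 and 0.49. FCF1, which processes ribosomal RNA, had 0.36, 0.56 and 0.34, and CHCHD4, which imports proteins into mitochondria, had 0.31, 0.49 and 0.30. GRPEL2, a mitochondrial cochaperone, was the 1 transcript lower with an unadjusted p under 0.05 (-0.55, -0.64 and -0.08).

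Ribosomal protein transcripts showed how a single pair can set a median. All 14 were higher on the right in embryos 50 and 51 and lower in embryo 52, with medians of 0.17, 0.80 and -0.09, and none had an unadjusted p under 0.05. In the mCherry embryos 5 of the 14 were higher in all 3 pairs. RPS24 (ENSGALT00000084442.2) was at 384, 562 and 364 CPM on the left and 449, 976 and 359 CPM on the right. RPL31 had ratios of 0.22, 0.81 and -0.02, and RPS25 had 0.23, 0.70 and -0.04. These transcripts are short, with a median length of 603 bases, and their median log2 fold change of 0.29 was 0.08 once the length trend was removed and 0.04 without embryo 51.

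Chaperones of the endoplasmic reticulum and sterol synthesis had no transcript at an unadjusted p under 0.05. Their median log2 fold changes were 0.09 for 13 transcripts and -0.02 for 8. Of the 13 chaperones, 7 were higher and 1 lower in all 3 DNBCAT embryos, and 2 and 3 in all 3 mCherry embryos. With the length trend removed, 2 of the 13 were higher and 1 lower at that p. CRELD2 and SDF2L1, which respond to unfolded proteins, had ratios of 0.25, 0.12 and 0.23 and of 0.36, 0.14 and 0.06. SEL1L, which helps to clear misfolded proteins, had -0.42, -0.61 and -0.05. Among sterol synthesis transcripts, the CYP51A1 transcript ENSGALT00000015253.5 had -0.17, -0.11 and -0.05 and FDPS had 0.01, 0.32 and 0.06.

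Extracellular matrix genes divided into transcripts with a common direction and transcripts whose direction differed between the pairs. Of 28 tested, 10 were lower on the right with an unadjusted p under 0.05, and the median log2 fold change was -0.21. The medians of the embryos were -0.44, -0.43 and -0.06. Without embryo 50 the count was 6 and without embryo 52 it was 12, with a median of -0.41. Of the 28, 6 are on the study's list.

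COL14A1, a collagen bound to fibrils, had the smallest p of the list. COL14A1 (ENSGALT00000077257.3) was at 47, 11.6 and 28.3 CPM on the left and 17.8, 4.02 and 14.4 CPM on the right, with ratios of -1.39, -1.50 and -0.96 and a log2 fold change of -1.29 (SE 0.16). ADAMTS3, a protease that processes procollagen, had ratios of -0.89, -0.87 and -0.77. FNDC1 had -0.87, -1.22 and -0.60, and FN1, fibronectin, had -0.68, -0.47 and -0.43. COL9A3, a chain of the collagen of cartilage and inner ear, had -0.50, -1.98 and -1.18. The study also called COL9A3 in the control electroporation of its separate Notch dataset.

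COL1A2, DCN and LUM, all of fibroblast matrix and counted here also as mesenchyme markers, turned direction between the pairs. COL1A2 had ratios of -0.85, -0.25 and 0.62, DCN had -0.80, -0.08 and 0.61, and LUM had -0.20, 0.11 and 0.92. The summed level of 13 mesenchyme markers went from 1096 to 810 CPM in embryo 50, from 1029 to 1220 CPM in embryo 51 and from 753 to 1050 CPM in embryo 52, left to right. In log2 terms these are -0.44, 0.25 and 0.48, against -0.10, -0.0059 and 0.31 in the mCherry embryos. The direction in embryo 51 rested on THY1 alone, since 9 of the 13 markers were lower on the right there. With THY1 left out, an alternative chosen after seeing the data, the sum went from 884 to 855 CPM in embryo 51, and the log2 ratios of the 3 embryos were -0.54, -0.048 and 0.58. The part of this difference in the matrix list was not tested.

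**Figure D4:**
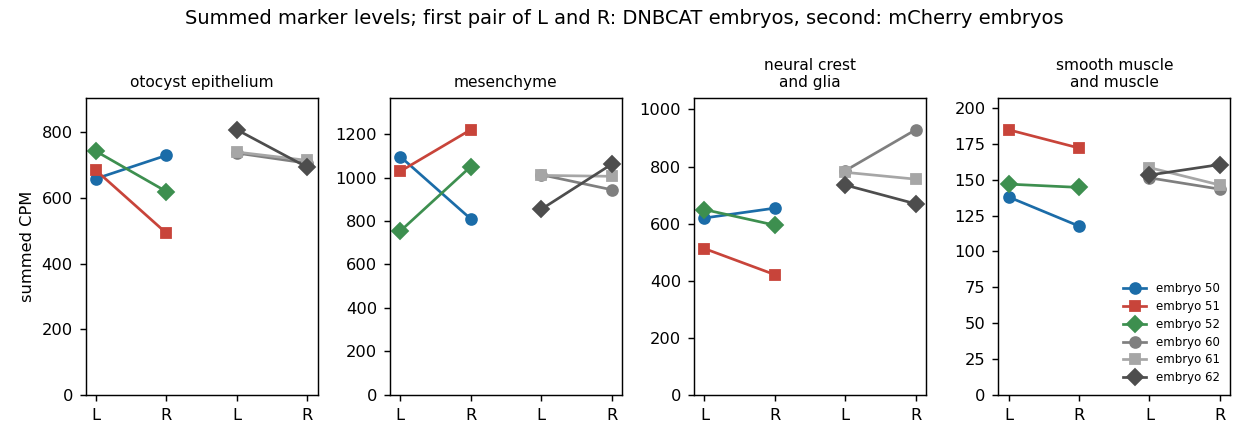
Summed CPM of 4 marker lists (vertical axis from 0) in the left and right otocyst of each embryo, DNBCAT embryos as the coloured pairs and mCherry embryos as the grey pairs. The mesenchyme sum goes from 1096 to 810 CPM in embryo 50 and from 753 to 1050 CPM in embryo 52, so these pairs cross.

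Markers of both otocyst epithelium and mesenchyme were detected in all 6 libraries. The otocyst epithelium markers summed to 659, 684 and 742 CPM on the left and 730, 492 and 619 CPM on the right, and 4 of the 8 were lower with an unadjusted p under 0.05 (CDH1, NEUROD1, OTOP1 and SOX9), a count that was 2 without embryo 51 or 52. None of the 13 mesenchyme markers was, and their median log2 fold change of -0.09 became 0.24 without embryo 50 and -0.35 without embryo 52. NT5E and SCX were scarce, at 1.07 to 3.4 CPM, and none of the mesenchyme markers was at 0. THY1 was high in the right otocyst of embryo 51, at 365 CPM against 101 to 163 CPM in the other 5. The remaining mesenchyme markers ENG, CDH11, SNAI1, CXCL12 and MMP2 had ratios between -0.53 and 0.48.

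Neural crest and muscle markers showed little. The crest and glia markers SOX10, ERBB3 and FABP7 had log2 fold changes of -0.21, -0.02 and 0.26, and SOX10 is also made by the otocyst itself. The muscle markers ACTA1, ACTA2, TAGLN and the 2 transcripts of MYL9 had log2 fold changes between -0.20 and -0.05. ACTA2 went the way of the mesenchyme markers, with ratios of -1.09, -0.18 and 0.63.

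Epithelial genes had a median log2 fold change of -0.61, and 9 of 16 were lower and 1 higher with an unadjusted p under 0.05. The embryos had medians of -0.41, -0.63 and -0.56, and the mCherry median was -0.20. The study's list holds 6 of the 16.

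ANXA2, a calcium-dependent membrane binding protein, was the transcript of this list with the smallest p, although it is not on the study's list. ANXA2 (ENSGALT00000005981.5) was at 65.4, 26.2 and 20.3 CPM on the left and 20.3, 6.72 and 3.48 CPM on the right, with ratios of -1.68, -1.94 and -2.50 and a log2 fold change of -2.04 (SE 0.24). In mCherry embryos 61 and 62 it was lower as well (0.24, -1.45 and -0.57). KRT7, a keratin of simple epithelia, was at 158, 80.4 and 92.7 CPM on the left and 96.4, 38.5 and 49.8 CPM on the right, with -0.89 (SE 0.10). S100A1, a calcium sensor, had ratios of -1.47, -0.62 and -1.24, the only 1 of these in which embryo 51 had the smallest ratio.

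Of the 16 transcripts of the list, 10 were lower in all 3 pairs and 1 was higher in all 3. In the mCherry embryos 6 of the 16 were lower in all 3 pairs and 2 were higher. CDH1, the cadherin of epithelial junctions, had ratios of -0.49, -1.15 and -0.39. EVPL, a protein of desmosomes, had -0.84, -0.89 and -0.36, and EPHA1, a receptor for ephrins, had -0.91, -1.26 and -0.96. KRT24 was the 1 transcript of the list that was higher with an unadjusted p under 0.05, with 0.40, 0.17 and 0.15. With the length trend removed, 10 transcripts of the list were lower and 0 higher at that p. CLDN3, a protein of tight junctions, had 0.01, -0.35 and -0.35.

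ADK and NUAK1 completed the 10 named transcripts that were higher in all 3 pairs with the smallest p. ADK (ENSGALT00000076547.2), adenosine kinase, was at 144, 160 and 143 CPM on the left and 188, 219 and 183 CPM on the right, without overlap, with a log2 fold change of 0.40 (SE 0.03). NUAK1 (ENSGALT00000020668.5), a kinase related to AMPK, was at 99.6, 83.3 and 126 CPM on the left and 137, 104 and 182 CPM on the right, with 0.44 (SE 0.06). The ratios of the 3 pairs were 0.38, 0.45 and 0.36 for ADK and 0.46, 0.32 and 0.53 for NUAK1, so embryo 51 did not lead for NUAK1.

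Some transcripts were found on 1 side only. Of the 28756 transcripts, 26 had at least 5 counts in every right otocyst and 0 in all 3 left otocysts. The reverse held for 24, so both sides gave similar numbers. Of these transcripts, 4 are named. The same count was not made in the mCherry embryos. Against a limit of 3 counts per library, PI4KA (ENSGALT00000057304.2), a lipid kinase, was at least 39.4-fold, 80.5-fold and 15.7-fold higher on the right. CP, ceruloplasmin (ENSGALT00000104594.1), was at least 16.2-fold, 32.3-fold and 18.1-fold higher. EIF2S1, a subunit of a translation initiation factor, was at least 13.8-fold, 35.5-fold and 13.7-fold higher.

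EIF2S1 and CP also differed widely between the sides in pairs without DNBCAT. In the mCherry embryos the EIF2S1 transcript (ENSGALT00000075355.2) had log2 ratios of 3.42, 0.00 and -4.88, and the CP transcript had -1.88, 4.52 and -0.89. Those of PI4KA were 0.00, 0.00 and -1.57. PLPPR4 (ENSGALT00000045311.3), a membrane protein of growing axons, was the named transcript found on the left only, and it was at least 10.3-fold, 8.27-fold and 15.3-fold lower on the right. Its mCherry ratios were -0.28, -0.96 and 0.22. These 4 transcripts are on the study's list, which was chosen on these samples. They passed the filter only through the side on which they were found.

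The named transcripts that departed most in a single pair were mostly unrelated to the lists above. SLC39A8 (ENSGALT00000094380.1), a zinc and manganese importer, was at 194 CPM in the right otocyst of embryo 51 and between 6.63 and 9.42 CPM in the other 5. That otocyst is the one in which 5 unnamed transcripts took 8.80% of the counts. Its log2 fold change of 1.46 (SE 1.44) thus came from 1 library.

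Other departures were transcripts present in some otocysts and absent from others. A transcript of UACA (ENSGALT00000063821.2) was at 0, 21.4 and 5.28 CPM on the left and 21.5, 58.4 and 0 CPM on the right. CDC42BPB (ENSGALT00000095634.1), a kinase of the cytoskeleton, was at 0, 14.0 and 0 CPM on the left and 25.8, 73.4 and 0 CPM on the right. BID (ENSGALT00000092609.1), a promoter of apoptosis, was at 16.4, 31.6 and 9.49 CPM on the left and 1.3, 26.1 and 0.322 CPM on the right. Embryo 51 expressed all 3 on both sides, whereas the other embryos lacked or nearly lacked 1 or both sides for at least 1 of them.

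EHMT1 (ENSGALT00000097613.1), a histone methyltransferase, was at 62.5, 23.1 and 62.2 CPM on the left and 25, 2.38 and 61.1 CPM on the right, so embryo 52 was level and embryos 50 and 51 were not. TENM3, a teneurin of neuronal wiring, had ratios of 0.79, -1.26 and 0.23. ZEB1 and ZEB2, repressors of epithelial genes and markers of mesenchyme here, had -0.47, 0.96 and 0.99 and -1.16, -0.03 and 0.58. In both, embryo 50 was lower on the right and embryo 52 higher, as for the sum of the mesenchyme markers. Both are part of that sum and were picked for their departure in embryo 50, so they are no separate evidence.

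**Figure D5:**
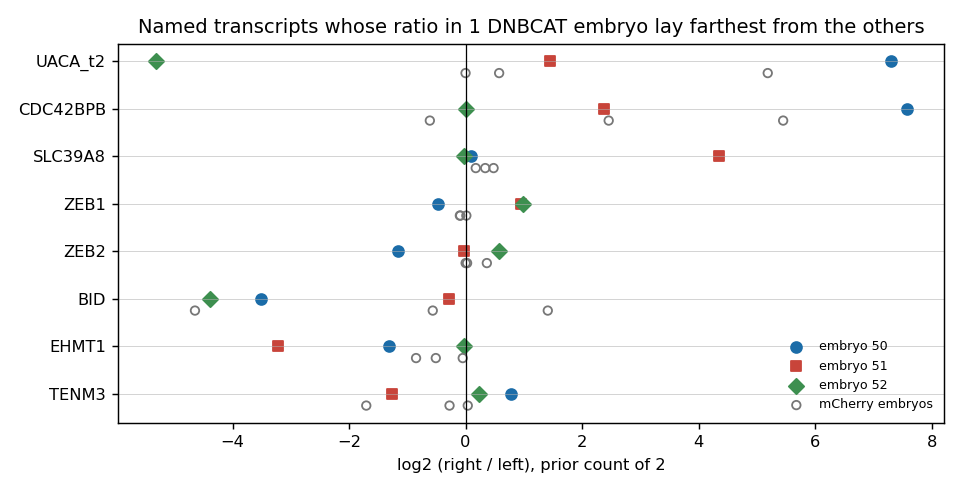
Log2 ratio of right to left (horizontal axis, prior count of 2) in the 3 DNBCAT embryos (filled markers) and the 3 mCherry embryos (open circles) for the named transcripts whose ratio in 1 embryo lay farthest from the mean of the other DNBCAT embryos. The markers of UACA span from -5.31 to 7.31, while SLC39A8 stands out in embryo 51 alone, at 4.34.

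The differences between the DNBCAT and the mCherry embryos gave 0 adjusted calls of 19298 transcripts tested (0.00%, edgeR) and 842 at an unadjusted p under 0.05 (4.36%). The named transcripts with the smallest p were HTR1E, with a difference of -1.55, WNT2B with -1.0 and NOXO1 with -1.84, each with an adjusted p of 0.670 (edgeR). ASTN2 followed with -1.17. The groups of libraries do not overlap, since each dataset has its own left otocysts.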

How the data were processed

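RNA of single otocysts was made into libraries with the SMART-Seq v4 and Nextera XT kits, which do not mark strand, and sequenced as paired ends. The authors quantified the reads with Kallisto against the GRCg6a transcriptome (bcl2fastq is also named in the submitters' processing notes, and the Kallisto version is not given in the sources used here), and deposited estimated counts, TPM values and transcript lengths per transcript. Estimated counts, which the authors did not normalize, were rounded and tested with edgeR 4.0.16 (R 4.3.3): TMM, the quasi-likelihood test with a block for the embryo, and Benjamini-Hochberg adjustment across the transcripts with at least 5 counts in at least 47% of the libraries. Log2 ratios used CPM with a prior count of 2. The deposited TPM values, which sum to the same total in every library, entered only alternatives. Totals were 13157404 to 15269714 per library; without molecular identifiers, limits of 3 counts cover counting error only.

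Left and right otocysts come from the same embryo. Their deviations from the group means correlated at 0.0938, 0.271 and 0.245 within embryos and from -0.262 to 0.0337 between embryos. Deviations from a group mean cancel out, so the values between embryos are not independent of those within. Names came from the study's supplementary tables (856 of 28756 transcripts), because the annotation given is of another build; coordinates and sequences are not used here. The study's own test values were not used.

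Members and lists were chosen with earlier results of these data known. Named genes were the 3 with the smallest p in each list, all Wnt ligands, antagonists and markers, the 10 lower and 10 higher in all 3 embryos with the smallest p, and the 5 departing most in each embryo with a mean of at least 10 CPM. A transcript selected by this rule is not reported here. Transcripts named beyond this rule were chosen after their values were seen. Alternatives were DESeq2 1.42.0, limma voom and limma on log2 TPM (3.58.1), DESeq2's size factors, other filters, no block, all 12 libraries, leaving out each embryo, and, added after seeing the data, a length trend (lowess span 0.3) and a marker sum without THY1. The scripts were tested on simulated data. Plots were made with Python 3.11.15, pandas 2.3.3 and matplotlib 3.10.9.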

Additional observations from a re-analysis of the deposited data

Results flagged for a closer look

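For 5 of the 161 transcripts named in the text all 3 DNBCAT pairs lay in one direction and all 3 mCherry pairs in the other. Of all transcripts, 16.5% were lower and 16.8% higher in all 3 DNBCAT embryos, and 13.1% and 13.5% in all 3 mCherry embryos. The share of all transcripts with such opposite directions was not counted, so the number 5 is not read as a result. In each of the 5, the test of the difference between the constructs across all transcripts gave an adjusted p of 0.935 (edgeR). None of these differences passed it. FGF3 had a mean log2 ratio of 0.52 in the DNBCAT pairs and -0.37 in the mCherry pairs (-0.19, -0.19 and -0.73 in embryos 60, 61 and 62). EVPL, the protein of desmosomes, had -0.70 against 0.15 (0.25, 0.10 and 0.11). SCX, a transcription factor of tendon progenitors counted among the mesenchyme markers, had -0.59 against 0.29 (0.13, 0.67 and 0.061). The STMN1 transcript ENSGALT00000084445.2 had -0.24 against 0.058 (0.037, 0.0082 and 0.13). ACTA1, a muscle actin, had -0.19 against 0.019 (0.026, 0.0046 and 0.027), so its mCherry pairs were close to level.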

How the results depend on the processing

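The count of adjusted calls was 0 in the paired edgeR test and 456 with DESeq2's Wald test, 1 (LDHA) with at least 10 counts in every library and 37 with limma on log2(TPM + 1), and the cause was not tested. The TPM scale moves the median log2 fold change of all transcripts from -0.02 to -0.23, and genes and lists on that scale are given relative to it. On it 5770 transcripts were lower and 551 higher in all 3 embryos. DESeq2 gave 64 adjusted calls for the difference between constructs and 84 in the mCherry embryos. Transcripts with an unadjusted p under 0.05 numbered 2527 with DESeq2, 2463 with all 12 libraries in the fit, and from 608 (without embryo 50) to 1335 when 1 embryo was left out. Without the replicate block, that is without the pairing by embryo, 470 had such a p and 88 of the 198 named transcripts kept it.

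Spearman's correlation between embryos 50 and 51 was 0.214 over all transcripts tested, 0.446 at a mean of at least 10 CPM and 0.598 at 50 CPM, and between embryos 50 and 52 it was 0.0405 over all and 0.134 at 50 CPM. Between embryos 51 and 52 it was 0.0804 over all, 0.0800 at 10 CPM and 0.0173 at 50 CPM.

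Of 299 list medians under alternatives, 279 moved by less than 1 SD between embryos and 10 had the other sign. Those were 6 of the neural crest and glia markers (0.0029 to 0.048) and 1 each, with 1 embryo left out, of β-catenin and its partners (0.016), the mesenchyme markers (0.24), Notch and sterol synthesis. With at least 10 counts in every library the medians were -0.59 for Wnt ligands and -0.31 for neural receptors. With log2(TPM + 1) they were -0.25 for Wnt feedback, -0.28 for neural receptors, -0.094 for Notch, 0.26 for mitosis, 0.065 for DNA replication, 0.021 for endoplasmic reticulum chaperones and -0.094 for sterol synthesis. With the length trend and the replicate block they were -0.83 for Wnt ligands, -0.29 for Wnt feedback and -0.079 for Notch. Leaving out 1 embryo gave -0.97 to -0.68 for Wnt ligands, -0.37 to -0.16 for Wnt feedback, -0.49 to -0.37 for ear patterning, -0.054 to 0.011 for Notch and -0.059 to 0.048 for sterol synthesis.

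Among 161 transcripts named in the text, 35 had the other sign under at least 1 alternative, in 67 of the alternative values, and 73 alternative values passed an adjusted p of 0.05 (61 with DESeq2, 11 with log2(TPM + 1) and 1 with at least 10 counts in every library). Leaving out 1 embryo gave -0.63 to 0.22 for ACTA2, -0.41 to 0.028 for AXIN1, -0.083 to 0.048 for CA9, -0.29 to 0.052 for CACNG3, -0.32 to 0.19 for CDH11, -0.56 to 0.19 for COL1A2, -0.18 to 0.00042 for CTNNB1, -0.23 to 0.16 for DACT2, -0.45 to 0.27 for DCN, -0.088 to 0.031 for DPYSL2, -0.33 to 0.048 for EBF2, -0.076 to 0.24 for ENG, -0.082 to 0.048 for ERBB3, -0.096 to 0.16 for FGF10, -0.045 to 0.031 for GSK3B, -0.59 to 0.13 for KCNG1, -0.050 to 0.51 for LUM, -0.068 to 0.13 for MCM2, -0.11 to 0.094 for MCM4, -0.037 to 0.049 for MCM6, -0.20 to 0.19 for a transcript of MYL9, -0.011 to 0.056 for NCAPG, -0.83 to 0.051 for NHLH1, -0.44 to 0.012 for NOTUM, -0.38 to 0.20 for SOHO-1, -0.31 to 0.0039 for a transcript of STMN1, -0.51 to 0.50 for TENM3, -0.071 to 0.71 for THY1, -0.81 to 3.17 for a transcript of UACA, -0.34 to 0.16 for WNT5B, -0.36 to 0.14 for WNT9A and -0.60 to 0.28 for ZEB2. DESeq2's Wald test and DESeq2's size factors gave 0.0094 and 0.0096 for DACT2, 0.0069 and 0.0029 for ERBB3, 0.0068 and 0.0057 for GSK3B and 0.010 and 0.0099 for MCM4. With limma voom DACT2 was at 0.012 and ERBB3 at 0.0062. Without the replicate block DACT2 was at 0.038, ERBB3 at 0.0081, MCM4 at 0.0063 and WNT9A at 0.0020. The length trend gave 0.041 for CDH11, -0.018 for CXCL12, 0.016 for DACT2, -0.025 for DKK3, 0.074 for ERBB3, -0.0026 for FDPS and 0.021 for MCM4. With log2(TPM + 1) FGF10 was at -0.060, MCM2 at -0.032, MCM6 at -0.071, NCAPG at -0.060 and TENM3 at 0.031. MCM6 was at -0.0051 with at least 10 counts in every library and at -0.0041 with log2(TPM + 0.1).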

Other observations

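Outside the lists above, DESeq2's Wald test called further named transcripts that are not on the study's list, a group looked up after their values were seen. HSPA8, a constitutive chaperone, was at 2807, 2895 and 2789 CPM on the left and 3343, 3376 and 3259 CPM on the right in embryos 50, 51 and 52, with a log2 fold change of 0.23 in the paired edgeR fit. BAG3, its cochaperone, was at 117, 122 and 91.0 CPM on the left and 136, 150 and 113 CPM on the right, with 0.28. WDR77, a partner of the arginine methyltransferase PRMT5, was at 339, 375 and 316 CPM on the left and 427, 443 and 402 CPM on the right, with 0.31. LIN28A, an RNA-binding protein of early embryonic cells, was at 83.1, 74.6 and 96.0 CPM on the left and 104, 91.3 and 130 CPM on the right, with 0.35. The adjusted p of each was 0.718 with edgeR. SDC4, a heparan sulfate proteoglycan of the cell surface, was lower on the right in all 3 pairs, from 57.4, 61.4 and 58.1 CPM to 47, 33.1 and 42.8 CPM, with -0.54.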
